A study of Mus musculus with 30 samples.

Results

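LSK cells (lineage negative, Sca-1 positive, Kit positive), the bone marrow fraction that contains haematopoietic stem cells and multipotent progenitors, were compared between EAP mice and transplanted wild type mice. The EAP libraries were the 3 whose labels give a heterozygous loss of Egr1 and a heterozygous deletion of Apc in the donor marrow, a Trp53 shRNA, and transplantation into wild type recipients without the mutagen ENU. The transplanted WT libraries were the 3 from wild type marrow that carried a luciferase shRNA and was likewise transplanted into wild type recipients. These 6 libraries are part of 12 LSK libraries and of 30 RNA-seq libraries in the series. The other 6 LSK libraries, used here beside the comparison, are 3 of EAP with ENU (the same genotype and shRNA, with ENU given to donor and recipient) and 3 of WT (untransplanted wild type without shRNA). All mice are labelled C57BL/6, and the transplanted animals were sampled about 2 months after transplantation, before myeloid disease. For EAP 1 the transplant label names wild type donor marrow, which contradicts the genotype and shRNA labels of the same library, and it was kept with EAP. Which host cells remained in the recipients, which promoter drove the deletion of Apc, and whether libraries of a group came from separate mice are not stated, so p-values measure only the spread between these samples.

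The engineered mice model myeloid neoplasms that arise after cytotoxic therapy. EGR1 and APC lie on the long arm of human chromosome 5, which is often deleted in these diseases. Egr1 is an immediate early transcription factor that restrains stem cell cycling and migration, Apc is a scaffold of the complex that marks beta-catenin for destruction and so limits Wnt signalling, and Trp53 encodes p53, which halts the cell cycle or triggers cell death after DNA damage. The comparison asks what the 3 lesions change together in stem and progenitor cells before disease, with both groups having gone through transplantation and shRNA expression.

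Values are the authors' normalised signal per gene, named CPM, for 11740 genes. Of these, 11730 reached a value of at least 1 in at least 3 of the 12 libraries and were tested with limma on log2(value + 1). The summed value was 1437201, 808377 and 924979 in EAP 1 to 3, against 942292, 954538 and 1206739 in transplanted WT 1 to 3. Sequencing depth is unknown. EAP libraries differed among themselves more than those of any other group. The median over genes of the standard deviation of log2(value + 1) within a group was 0.603 in EAP, 0.164 in EAP with ENU, 0.342 in transplanted WT and 0.451 in WT. On the first principal component, with 49.8% of the variance, EAP 1 (96.4), transplanted WT 3 (51.1) and WT 2 (67.7) stood apart from the other 9 libraries, which ranged from -38.2 to -10.5. Over all tested genes EAP 1 correlated best with transplanted WT 3 (Pearson r 0.961) and EAP 3 with EAP with ENU 1 (0.983). The 3 outlying libraries also held the smallest shares of signal in long transcripts, and WT 2 differed from the rest in the Y-linked gene Eif2s3y, listed at 0 there and at 21.4 to 96.0 in the other 11. All 4 tested Y-linked genes (Ddx3y, Eif2s3y, Kdm5d and Uty) had a negative difference between EAP and transplanted WT, with a median log2 difference of -1.03, and 0 had an unadjusted p under 0.05. Their mean log2 level was 3.16 to 3.99 in EAP, 4.45 to 4.72 in EAP with ENU and 4.49 to 4.61 in transplanted WT, and it was 5.16 in WT 1 and WT 3. Ddx3y had 14.3, 16.02 and 22.3 in EAP 1 to 3, against 30.6, 41.8 and 46.3 in transplanted WT 1 to 3, without overlap, whereas the ranges of the other 3 overlapped. The part of the Y-linked difference in the results was not tested. Genes with transcripts of 2353 bases or more took 6.06, 13.4 and 10.7% of the signal in EAP 1 to 3, against 9.84, 9.78 and 7.53% in transplanted WT 1 to 3. For some lists the results are also given without the 3 outlying libraries together, and for others only without single libraries or with all libraries. The part of the 3 libraries in the differences was not tested.

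**Figure D1:**
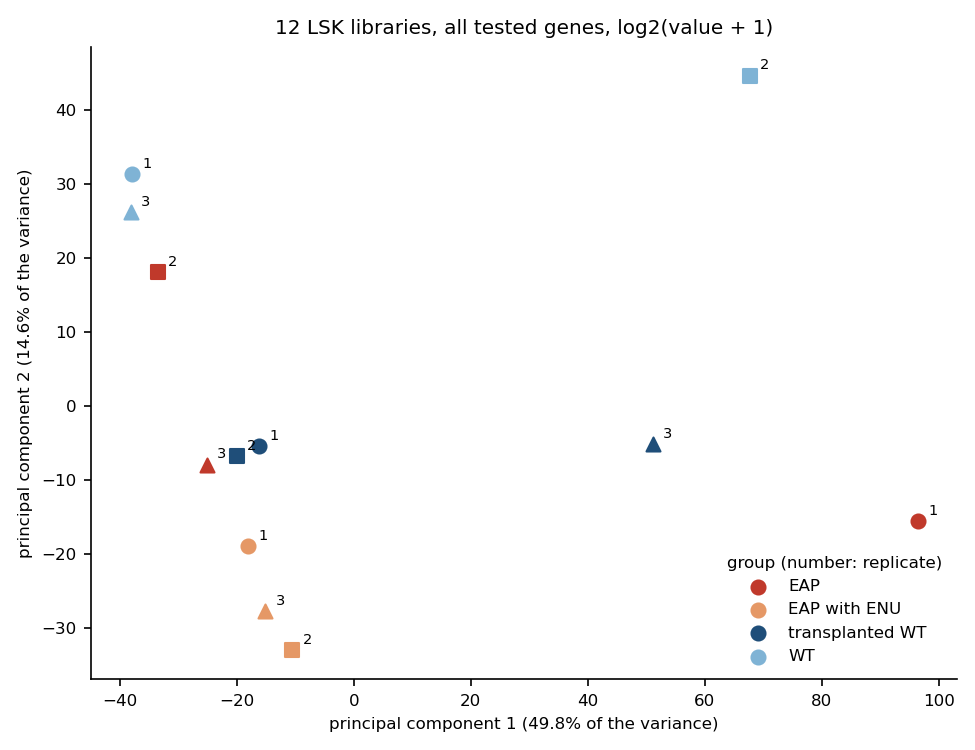
Principal components of the 12 LSK libraries over all tested genes on log2(value + 1), with 1 point per library, coloured by group and numbered by replicate. EAP 1 lies at 96.4 on the first component and transplanted WT 3 at 51.1, whereas EAP 2 and EAP 3 lie among the other libraries at -33.5 and -25.2.

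The surface proteins of the sort, Ly6a (Sca-1), Kit, Cd34 and Ptprc, were present in all 6 libraries, and 0 of the 4 had an unadjusted p under 0.05. The summed level of 10 LSK marker genes was 2002 to 2553 in EAP and 2439 to 2615 in transplanted WT, and none of the 10 was at 0 in a whole group. Presence of these transcripts does not show the purity of the sort. Markers of plasma cells summed to 333 to 1305 in EAP and 225 to 886 in transplanted WT. Those of basophils, eosinophils and mast cells summed to 148 to 823 in EAP and 90.2 to 856 in transplanted WT. Trp53, the target of the shRNA, had values of 65.5, 132 and 106 in EAP 1 to 3, against 308, 370.4 and 247 in transplanted WT 1 to 3. No EAP library reached the transplanted WT range, and the label of EAP 1 as a Trp53 shRNA library matched its value, the lowest of the 12. The log2 difference was -1.64 ± 0.38 (SE), with an unadjusted p of 0.00112 that did not pass after Benjamini-Hochberg adjustment in limma (adjusted p = 0.655).

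3 genes passed the threshold of 0.05 on the adjusted p, which is 0.0256% of the genes tested. Cd14 and Mettl7a3 rose in EAP (2 genes, 0.0171% of those tested), and Eaf2 fell (1 gene, 0.00853%). A further 421 genes had an unadjusted p under 0.05 without passing, so that 194 genes (1.65%) lay higher and 230 (1.96%) lower at this level. Ranges of the 2 groups did not overlap for 446 genes that were higher in EAP (3.8%) and 373 that were lower (3.18%), together 6.98% of those tested.

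Cd14 encodes the coreceptor that hands bacterial lipopolysaccharide to the Tlr4 complex on monocytes and macrophages. Its values were 19.2, 19.4 and 11.5 in EAP 1 to 3, 14.4, 32.6 and 25.6 in EAP with ENU 1 to 3, 0.8104, 0.954 and 0.975 in transplanted WT 1 to 3 and 0.319, 2.57 and 0.945 in WT 1 to 3. All 6 libraries with the mutant genotype exceeded 11 and all 6 wild type libraries were under 3. The mean was 16.7 ± 4.47 in EAP and 0.913 ± 0.0895 in transplanted WT (SD, n = 3 each), an 18.3-fold difference. The log2 difference on the scale with the pseudocount was 3.18 ± 0.41 (SE) in limma (adjusted p = 0.0262). Against untransplanted WT it was 3.05 ± 0.41 (adjusted p = 0.0195 in limma), and against EAP with ENU it was -0.47 ± 0.41 (unadjusted p = 0.271). Both contrasts with wild type share the EAP libraries. Cd14 lies on chromosome 18 at 36725067 to 36726798 in mm10, on the chromosome that carries both engineered loci, Apc at 34220924 to 34322552 and Egr1 at 34859823 to 34864984. Its partners in the receptor complex gave no such separation. Tlr4, the signalling receptor, had values of 1.196, 3.26 and 4.48 in EAP, against 3.36, 3.62 and 2.15 in transplanted WT, and Ly96, its lipopolysaccharide-binding partner, had 15.1, 8.69 and 10.6 in EAP, against 14.5, 17.98 and 8.996 in transplanted WT. Both overlapped between groups.

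Mettl7a3 belongs to a small family of methyltransferase-like proteins encoded side by side on chromosome 15. It had values of 7.55, 2.45 and 5.397 in EAP 1 to 3 and 5.91, 4.54 and 4.59 in EAP with ENU 1 to 3, and was listed at 0 in all 6 wild type libraries. The log2 difference between EAP and transplanted WT was 2.52 ± 0.32 (SE) in limma (adjusted p = 0.0262), a size set by the pseudocount and no measure of fold. Its neighbour Mettl7a2 also separated the groups, with 5.16, 2.54 and 8.29 in EAP and 0 in every transplanted WT library, but did not pass (adjusted p = 0.345 in limma). Mettl7a1, the third member, had values of 132, 54.3 and 93.9 in EAP, against 85.7, 110.1 and 73.7 in transplanted WT, which overlapped. The 3 genes are close copies, so that reads may have been divided between them in the authors' counting, and the values of the low members are uncertain for that reason.

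Eaf2 encodes a partner of the ELL elongation factors of RNA polymerase II and is also a known marker of plasma cells. It had 7.55, 7.27 and 5.52 in EAP 1 to 3, 11.4, 9.72 and 16.6 in EAP with ENU 1 to 3, 27.5, 32.5 and 30.7 in transplanted WT 1 to 3 and 5.005, 5.55 and 6.13 in WT 1 to 3. The transplanted WT libraries were above all 9 others. The mean was 6.78 ± 1.103 in EAP and 30.2 ± 2.502 in transplanted WT (SD, n = 3 each), with a log2 difference of -2.01 ± 0.26 (SE) in limma (adjusted p = 0.0262). Against untransplanted WT the EAP libraries differed by 0.24 ± 0.26 (unadjusted p = 0.375), and transplanted WT differed from WT by 2.25 ± 0.26 (adjusted p = 0.013 in limma). Eaf2 thus fell in EAP relative to a control group that was itself above untransplanted cells.

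The number of calls and the background depended on single libraries. At an unadjusted p under 0.05, 490 genes lay higher and 624 lower without EAP 1, 154 and 219 without EAP 2, 333 and 435 without EAP 3, and 721 and 937 without EAP 1, transplanted WT 3 and WT 2 together. The counts were 159 and 187 without transplanted WT 1, 125 and 123 without transplanted WT 2, and 126 and 196 without transplanted WT 3. On the adjusted p, 0 genes passed without EAP 1, without EAP 3 or without any 1 of the 3 transplanted WT libraries, in either direction. Without EAP 2, 1 gene passed as higher (Mettl7a3) and 0 lower. Without EAP 1, transplanted WT 3 and WT 2 together, 1 gene was higher (Hyi) and 0 lower. In the 16 alternatives tried, Cd14 passed in 4, Mettl7a3 in 7 and Eaf2 in 5, and the log2 difference kept its sign in all of them, ranging from 2.71 to 4.02 for Cd14 and from -2.26 to -1.89 for Eaf2.

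**Figure D2:**
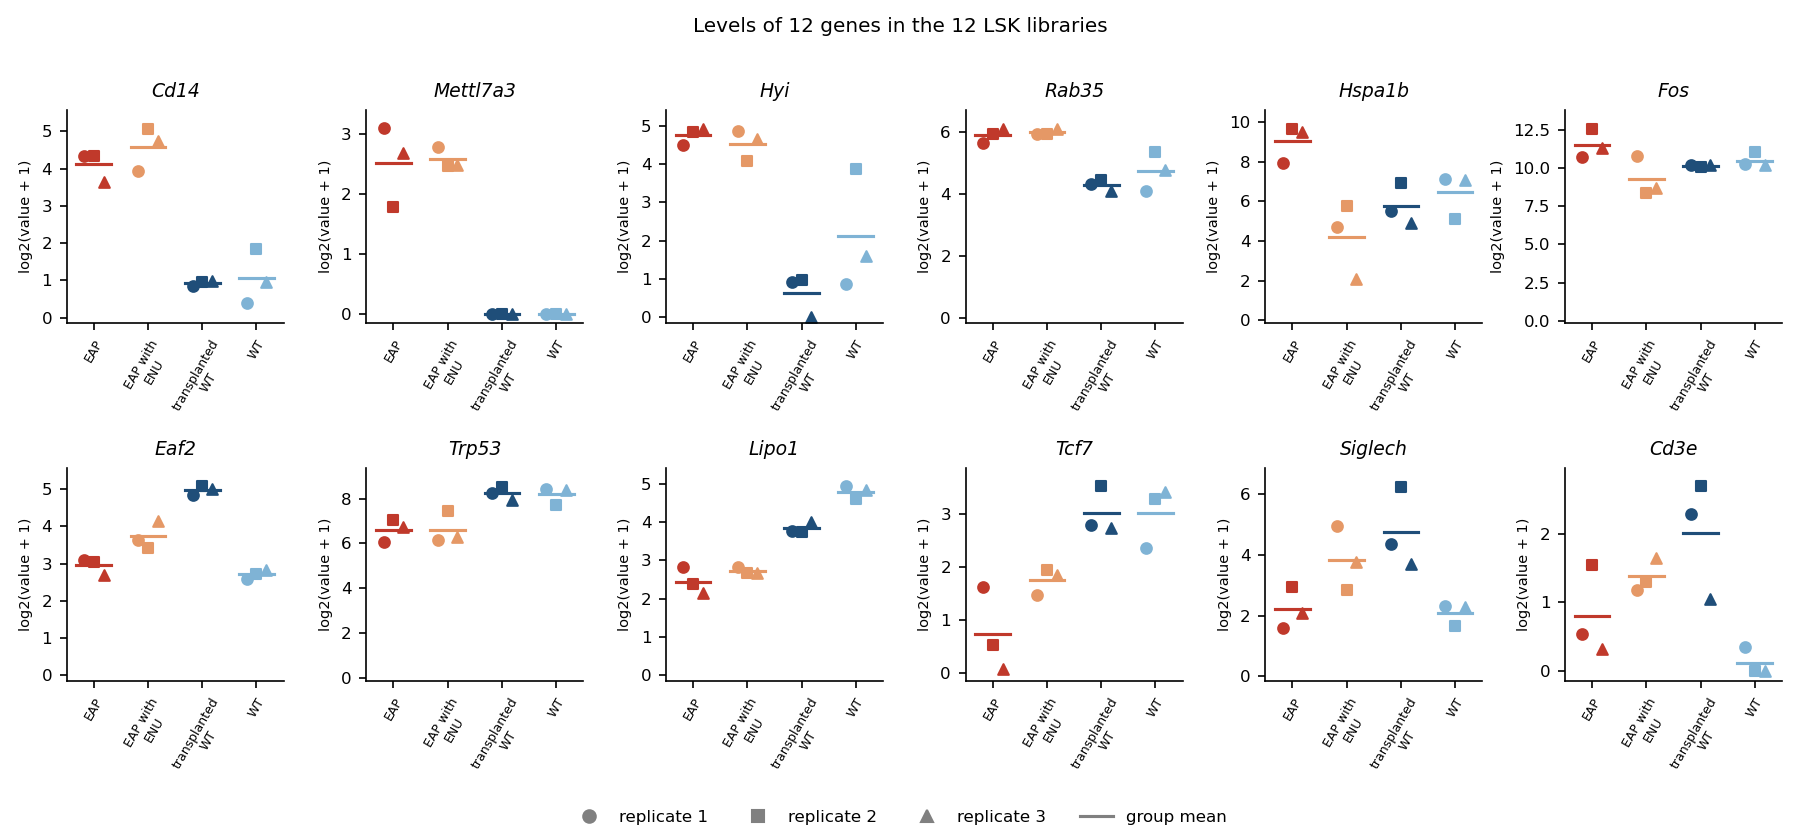
Log2(value + 1) of 12 genes in each LSK library, by group, with a marker for each replicate and a line at the mean of each group. The EAP points of Cd14, Mettl7a3, Hyi and Rab35 lie above all transplanted WT points and beside those of EAP with ENU, and the EAP points of Trp53, Lipo1 and Tcf7 lie below both wild type groups. For Eaf2 the EAP points lie beside those of WT.

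Behind the genes that passed came others without overlap, taken where the higher group averaged 5 or more, none of which passed. Hyi, a putative hydroxypyruvate isomerase, had 21.4, 27.8 and 29.4 in EAP 1 to 3, against 0.884, 0.9502 and 0 in transplanted WT 1 to 3. The log2 difference was 4.13 ± 0.62 (SE), with an adjusted p of 0.0934 in limma, and it passed in 3 of the 16 alternatives. In WT the values of Hyi were 0.835, 13.5 and 2.02, so that WT 2 was nearer to EAP than the other wild type libraries. Rab35, a small GTPase of endosome recycling, had 48.8, 60.2 and 67.7 in EAP, against 19.1, 21.1 and 16.2 in transplanted WT, and differed by 1.59 ± 0.30 (unadjusted p = 0.000203). Cap1, which recycles actin monomers, had 174, 63.9 and 86.5 in EAP, against 0.0515, 25.6 and 2.16 in transplanted WT. Its low values within transplanted WT were far apart, and its log2 difference of 4.49 ± 0.95 came with an SE close to 1. Erdr1, a gene named for its response to erythroid differentiation, had 332, 1228 and 469 in EAP, against 148, 90.4 and 112 in transplanted WT (2.32 ± 0.41, unadjusted p = 0.000122). WT libraries, with 373, 409 and 409, overlapped EAP. Erdr1 has no position in the annotation used, and reads from copies of it could not be told apart.

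A pair of receptors of the Mas-related family, Mrgpra2a and Mrgpra2b, lay higher in all 3 EAP libraries. Mrgpra2a had 57.2, 10.1 and 16.4 in EAP, against 1.62, 1.42 and 4.16 in transplanted WT (2.81 ± 0.64, unadjusted p = 0.001), and Mrgpra2b had 291, 14.97 and 22.6, against 2.81, 2.34 and 8.72 (3.27 ± 0.94, unadjusted p = 0.00489). In both genes EAP 1 was the highest of the 12 libraries. The receptors are near copies, so that reads may have been shared between them. Psma8, a proteasome subunit best known from the testis and encoded on chromosome 18, had 40.6, 46.8 and 40.4 in EAP, against 15.96, 19.2 and 12.2 in transplanted WT (1.396 ± 0.34, unadjusted p = 0.00149). Cxcr2, the chemokine receptor of neutrophils, had 19.6, 17.9 and 10.1 in EAP, against 6.91, 7.23 and 6.405 in transplanted WT (1.05 ± 0.28, unadjusted p = 0.00277). The ranges of Cxcr2 were close to each other, since EAP 3 was at 10.1 and the highest transplanted WT library at 7.23. Zfp932, Cep85 and Timmdc1 completed the higher genes, and the EAP libraries of Zfp932 and Cep85 overlapped those of WT.

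The lower genes next in line included Tcf7, Ankrd6 and Cd8b1. Tcf7, the transcription factor through which beta-catenin acts in early T cells and progenitors, had 2.07, 0.445 and 0.0578 in EAP 1 to 3, 1.77, 2.84 and 2.61 in EAP with ENU 1 to 3, 5.97, 10.5 and 5.71 in transplanted WT 1 to 3 and 4.14, 8.78 and 9.72 in WT 1 to 3. The EAP libraries were below all 6 wild type libraries, with a log2 difference from transplanted WT of -2.28 ± 0.43 (unadjusted p = 0.000239). Ankrd6, an ankyrin protein that tunes Wnt signalling through Dishevelled, had 1.904, 0.676 and 2.04 in EAP, against 4.79, 6.73 and 7.65 in transplanted WT (-1.57 ± 0.30, unadjusted p = 0.000239). Cd8b1, a chain of the CD8 coreceptor, had 1.18, 0 and 0.938 in EAP, against 4.59, 12.3 and 4.82 in transplanted WT (-2.23 ± 0.47, unadjusted p = 0.000555), and WT overlapped EAP, at 0.6298, 1.96 and 0.348.

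Other genes that lay lower act in metabolism and signalling. Lipo1, a member of a lipase family, had 6.06, 4.197 and 3.42 in EAP, against 12.8, 12.3 and 15.1 in transplanted WT, and differed by -1.39 ± 0.25 (adjusted p = 0.305 in limma). Against WT, with 29.6, 23.2 and 27.8, the log2 difference was -2.35 ± 0.25 and passed (adjusted p = 0.00678 in limma). That contrast, with the same EAP libraries, called 18 genes (0.153% of those tested), and 8.55% had an unadjusted p under 0.05. Paqr5, a membrane progestin receptor, had 9.11, 10.9 and 14.5 in EAP, against 29.9, 33.7 and 34.8 in transplanted WT (-1.45 ± 0.31, unadjusted p = 0.000627). For Paqr5 the gap between the groups was wider than the range within either.

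Some of the lower genes separated EAP from EAP with ENU as well. Kmo, an enzyme of tryptophan breakdown, had 6.795, 5.86 and 4.87 in EAP, 22.6, 13.6 and 15.9 in EAP with ENU and 11.8, 30.3 and 18.3 in transplanted WT (-1.54 ± 0.36, unadjusted p = 0.00126). Enoph1, an enzyme of methionine salvage, had 27.2, 28.9 and 40.2 in EAP, 58.2, 81.2 and 60.5 in EAP with ENU and 60.4, 60.5 and 59.8 in transplanted WT (-0.91 ± 0.22, unadjusted p = 0.001498). For both genes the EAP libraries lay below all 3 EAP with ENU libraries, with an unadjusted p of 0.00238 for Kmo and 0.000562 for Enoph1 in that contrast. EAP against EAP with ENU called 0 genes on the adjusted p (0% of those tested) and 617 (5.26%) at an unadjusted p under 0.05. Amica1, Hs3st1 and Zmat5 completed the lower genes. Zmat5, a zinc finger protein of the minor spliceosome, was at 9.78 in EAP 1 and practically at 0 in EAP 2 and EAP 3, against 32.95, 19.6 and 64.97 in transplanted WT, but WT 2 was also low, at 0.950.

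The groups outside the comparison, EAP with ENU and WT, share no library with EAP and transplanted WT. They are no independent test of these genes. The p-values that ranked the genes came from a fit whose spread was shared by all 4 groups, the outside ones included. EAP with ENU and WT also differ in transplantation, shRNA and ENU. Of the 14 genes on the higher side that passed or came next in line, Mettl7a2 and Hspa1b among them, 8 also had EAP with ENU above WT without overlap, namely Cd14, Mettl7a3, Hyi, Erdr1, Rab35, Mrgpra2a, Psma8 and Cxcr2. Of the 13 on the lower side, with Trp53 and Eaf2, 6 had EAP with ENU below WT without overlap, among them Trp53, Lipo1, Tcf7, Ankrd6 and Paqr5. Over all tested genes the shares were 14% in the higher and 13.7% in the lower direction. Of the 446 genes without overlap on the higher side, 53 (11.9%) separated the same way in the outside libraries, which is below the share of all genes. Of the 373 on the lower side, 87 (23.3%) did.

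Over the 12 LSK libraries, the genes whose log2 levels followed Cd14 most closely were Chsy1 (Pearson r 0.934), Rab35 (0.933), Mettl7a3 (0.933), Psma8 (0.906) and Hyi (0.897). Those closest to Mettl7a3 were Cd14 (0.933), Mrgpra2b (0.897), Psma8 (0.888), Mettl7a2 (0.887) and Mrgpra2a (0.885). Eaf2 had a different company, with Cd8b1 (0.853), H2-Eb1 (0.826), Pltp (0.824), Atg7 (0.818) and H2-D1 (0.815). These are descriptions over libraries that fall into 4 groups.

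**Figure D3:**
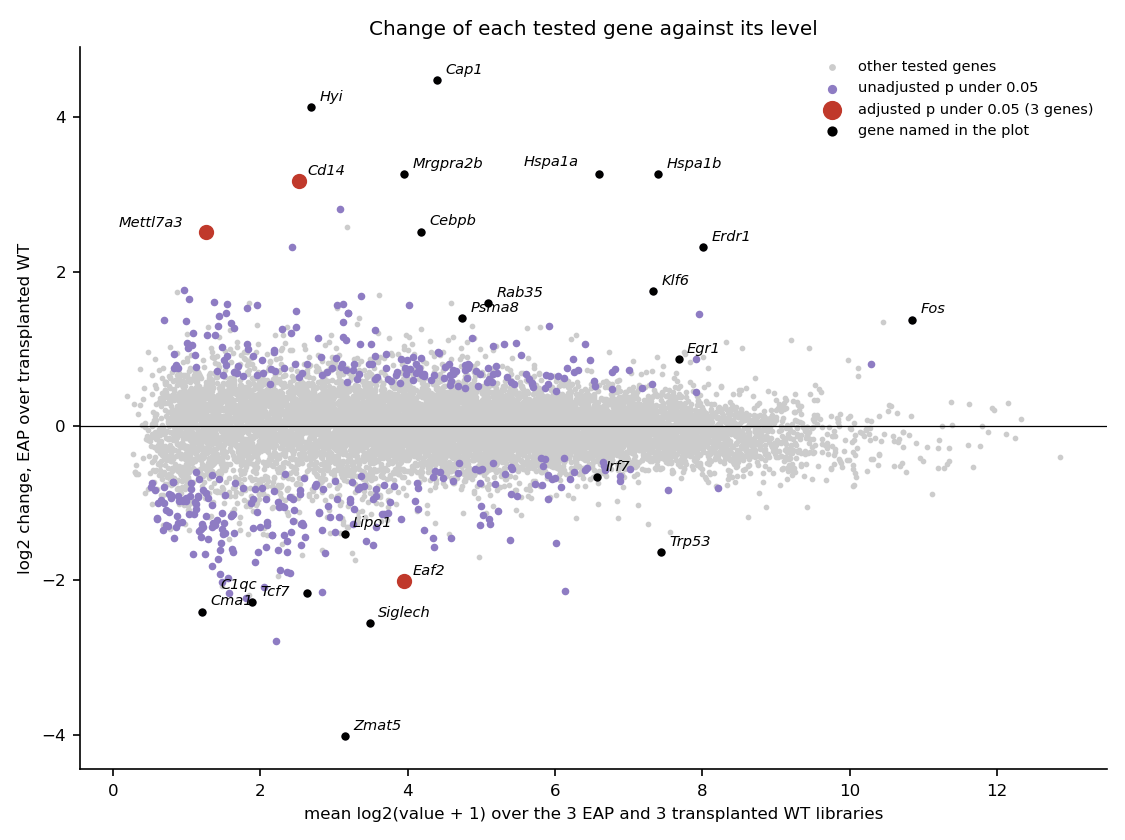
Log2 change of every tested gene between EAP and transplanted WT against its mean log2(value + 1) over the 6 libraries. The 3 genes that passed are in red, genes at an unadjusted p under 0.05 in purple and further genes named in the text in black. Cap1 (4.49) and Hyi (4.13) lie above Cd14 (3.18) without passing, and Zmat5 (-4.02) lies lowest among the named genes.

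The levels of Egr1 and Apc overlapped between groups. Egr1 had 75.03, 840.5 and 329 in EAP 1 to 3, against 188, 137 and 133 in transplanted WT 1 to 3, so that EAP held both the lowest and the highest of the 6 values (0.86 ± 0.77, unadjusted p = 0.283). Apc had 5.41, 8.82 and 10.99 in EAP, against 6.13, 8.15 and 4.31 in transplanted WT (0.37 ± 0.40, unadjusted p = 0.368). The values are per gene and do not separate the alleles. On chromosome 18, the window from 29000000 to 42000000 around both genes held 84 tested genes, with a median log2 difference of 0.02. Of these, 4 lay higher and 2 lower at an unadjusted p under 0.05. Both counts are above the shares of all tested genes, 1.65% higher and 1.96% lower. The higher ones were Cd14, Tmco6, Stard4 and Rell2, and the lower ones Bin1 and Ecscr. Over the whole chromosome 10 of 278 genes (3.60%) were at this level, against 3.61% of all genes.

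The p53 pathway list held 43 tested genes, none of which passed. At an unadjusted p under 0.05, 1 lay higher and 1 lower (background 1.65% and 1.96%). The median log2 difference was -0.03, beside -0.02 over all tested genes. Cdkn1a (p21), the p53 target that halts the cell cycle, had 42.6, 36.7 and 24.1 in EAP, against 29.03, 31.1 and 44.3 in transplanted WT. Mdm2, which is induced by p53 and degrades it, had 64.6, 101 and 64.8 in EAP, against 66.04, 62.7 and 52.8 in transplanted WT. Ccng1, another direct target, had 23.4, 49.6 and 58.3 in EAP, against 48.7, 59.4 and 42.4 in transplanted WT. Cdkn1a, Mdm2 and Ccng1 overlapped between groups although Trp53 did not. Btg2, a further direct target that halts the cycle, did not overlap and was higher, with values given among the immediate early genes below. Pmaip1 (Noxa), a target that triggers cell death, had 16.01, 13.9 and 9.57 in EAP, against 5.03, 3.78 and 4.64 in transplanted WT, and so lay on the higher side (1.35 ± 0.50, unadjusted p = 0.0208). Ptp4a3, a phosphatase gene that p53 can induce, was the lower one (-0.71 ± 0.27, unadjusted p = 0.0228). The death effectors Bax and Bbc3 overlapped between groups. Among 15 tested Bcl2 family genes Pmaip1 was the only member at an unadjusted p under 0.05.

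Of 37 tested Wnt pathway genes none passed, and 3 lay higher and 2 lower at an unadjusted p under 0.05 (background 1.65% and 1.96%). The median log2 difference was 0.04. All 5 members of the destruction complex list (Apc, Axin1, Gsk3a, Gsk3b and Csnk1a1) had a positive difference, with a median of 0.37, and none had an unadjusted p under 0.05. Axin1, the scaffold of the complex, had 15.1, 82.9 and 63.1 in EAP, against 36.6, 11.2 and 16.5 in transplanted WT, a wide range within EAP. Ctnnb1, beta-catenin itself, had 69.1, 134 and 200.3 in EAP, against 188, 221 and 115 in transplanted WT. Wls, the carrier that takes Wnt ligands to the cell surface, had 18.98, 13.6 and 19.3 in EAP, against 4.01, 11.9 and 6.004 in transplanted WT (1.24 ± 0.36, unadjusted p = 0.00557), and Ctbp2 and Dvl1 were the other higher members. Tcf7 and Ankrd6 were the lower ones. The list's median was 0.28 without EAP 1 and -0.29 without EAP 2.

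Heat shock chaperones were among the list members that stood highest in EAP. These proteins refold damaged proteins and are induced by the factor Hsf1, which binds heat shock elements in their promoters. The upstream promoter stretches of the 2 inducible Hsp70 genes are shown because these genes had the largest differences of the list. Each runs 5′ to 3′ over the 250 bases before the start site (RefSeq, GRCm38.p6, minus strand), Hspa1a at chr17:34972157-34972406 and Hspa1b at chr17:34959239-34959488, with a match to the heat shock element GAANNTTC in capitals.
Hspa1a: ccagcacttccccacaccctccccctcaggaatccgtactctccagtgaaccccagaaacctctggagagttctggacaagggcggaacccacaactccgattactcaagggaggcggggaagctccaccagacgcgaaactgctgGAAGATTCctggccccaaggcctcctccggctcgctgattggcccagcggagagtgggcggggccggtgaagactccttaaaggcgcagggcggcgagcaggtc
Hspa1b: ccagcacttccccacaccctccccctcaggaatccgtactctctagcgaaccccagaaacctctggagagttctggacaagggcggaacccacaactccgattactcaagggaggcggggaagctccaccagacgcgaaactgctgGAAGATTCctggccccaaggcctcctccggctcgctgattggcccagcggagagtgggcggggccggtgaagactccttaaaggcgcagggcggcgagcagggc
The 2 stretches are identical at 247 of 250 bases, and in both the match begins 104 bases before the start site. GAANNTTC, which reads the same on both strands, occurs in 2199 of 32851 promoter windows of this length (6.69%), and in 5 of the 10 list members with a promoter in the table. The other 3 were Dnaja1, Hspd1 and Hspe1. The matches of Hspd1 and Hspe1 are the same bases, read from opposite strands in overlapping windows, and the Hsp70 stretches are near copies. The 5 members thus do not hold 5 separate sites. A match describes letters in a window and is not a measured binding site.

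Hspa1a had 132, 444 and 453 in EAP 1 to 3, 15.3, 33.7 and 1.41 in EAP with ENU 1 to 3, 23.7, 78.7 and 14.5 in transplanted WT 1 to 3 and 94.5, 18.8 and 76.97 in WT 1 to 3. Hspa1b had 244, 805 and 729 in EAP, 24.7, 53.7 and 3.28 in EAP with ENU, 44.2, 118 and 29.1 in transplanted WT and 139, 33.8 and 134 in WT. For both genes the 3 EAP libraries were above all 9 others. The log2 difference between EAP and transplanted WT was 3.26 ± 0.98 for Hspa1a (unadjusted p = 0.00636) and 3.26 ± 0.91 for Hspa1b (unadjusted p = 0.00396), and neither passed. Against EAP with ENU the difference was larger, at 4.85 ± 0.91 for Hspa1b (unadjusted p = 0.000208). The 2 genes are near copies whose reads may have been shared, so they are not independent of each other. Dnajb1, the Hsp40 cochaperone, had 395, 311 and 281 in EAP, against 176, 149 and 216 in transplanted WT (0.87 ± 0.34, unadjusted p = 0.0263), although WT 2 was at 359. Cryab, a small heat shock protein, was the fourth member at this level, with 1.08, 8.27 and 14.5 in EAP, against 2.004, 0.359 and 1.79 in transplanted WT. Of 15 tested chaperones 4, with both Hsp70 copies among them, lay higher and 0 lower at an unadjusted p under 0.05 (background 1.65% and 1.96%), and the median log2 difference was 0.44. The mean log2 level of the list was 7.18 to 7.52 in EAP, 6.40 to 6.99 in EAP with ENU, 6.57 to 6.77 in transplanted WT and 6.79 to 7.01 in WT. For 5 members the EAP libraries were above all transplanted WT libraries, namely Hspa1a, Hspa1b, Dnajb1, Dnaja1 and Dnajb4, against a background of 3.8%. Dnaja1, an Hsp40 protein, had 255, 173 and 191 in EAP, against 166, 168 and 121 in transplanted WT, and Dnajb4, another, had 11.8, 13.8 and 12.8, against 4.85, 11.4 and 10.4. The constitutive genes Hspa8 and Hsp90aa1 overlapped between groups. Hspa8 had 4803, 2175 and 2508 in EAP, against 1793, 2158 and 3508 in transplanted WT, and Hsp90aa1 had 556, 448 and 752, against 525, 555 and 436. Without EAP 1 or without EAP 2 the list had 3 higher and 0 lower members, and without transplanted WT 2 it had 2 and 0. Across the settings the median ranged from 0.22 to 0.58.

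Immediate early genes, which cells switch on within minutes of a stimulus or of handling, gave the highest list median. Of 44 tested members 33 had a positive and 11 a negative difference, with a median of 0.51. None passed, 2 lay higher at an unadjusted p under 0.05, and for 10 the EAP libraries were above all transplanted WT libraries (background 3.8%). Fos, the AP-1 subunit, had 1696, 6064 and 2557 in EAP 1 to 3, 1747, 337 and 409 in EAP with ENU 1 to 3, 1182, 1095 and 1158 in transplanted WT 1 to 3 and 1219, 2091 and 1182 in WT 1 to 3. Its difference was 1.38 ± 0.62 (unadjusted p = 0.0461). Klf6, a Kruppel-like factor, had 251, 438 and 233 in EAP, against 111, 87.2 and 69.1 in transplanted WT (1.74 ± 0.67, unadjusted p = 0.0237). Jun and Junb, partners of Fos, had unadjusted p-values above 0.05. Jun had 638, 3176 and 1313 in EAP, against 856, 864 and 934 in transplanted WT, and Junb had 803, 1767 and 680.4, against 439, 406 and 668. The level of the list followed single libraries. EAP 2 was the highest of the 3 EAP libraries for 33 of 44 members and the highest of all 12 libraries for 21, EAP with ENU 1 was the highest of 12 for 12, and EAP 1 was the lowest of 12 for 10. Without EAP 2, 0 members were at an unadjusted p under 0.05 and the median was 0.13, and without EAP 1 there were 10 higher and 1 lower with a median of 0.88, while 490 of all tested genes lay higher and 624 lower in that fit. Without transplanted WT 3 there were 0 and 0 with a median of 0.20, and leaving out EAP 3, transplanted WT 1 or transplanted WT 2 gave 1 and 0 each. Without EAP 1, transplanted WT 3 and WT 2 there were 8 and 0 with a median of 0.72, while 721 of all 11668 genes in that fit lay higher. Egr1 is itself on this list, and its highest value was also in EAP 2.

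The promoters of 3 members hold a full cyclic AMP response element, TGACGTCA, the site through which Creb starts many immediate early genes. Those of Btg2 and Dusp1 are shown as examples. They are written as above, in capitals at the match, with Btg2 at chr1:134079156-134079405 and Dusp1 at chr17:26508473-26508722, both on the minus strand of GRCm38.p6 in RefSeq.
Btg2: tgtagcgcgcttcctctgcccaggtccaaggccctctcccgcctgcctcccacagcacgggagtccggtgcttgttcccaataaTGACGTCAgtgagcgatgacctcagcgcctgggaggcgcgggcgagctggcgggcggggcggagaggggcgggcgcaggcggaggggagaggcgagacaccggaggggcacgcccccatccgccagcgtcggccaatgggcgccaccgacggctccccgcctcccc
Dusp1: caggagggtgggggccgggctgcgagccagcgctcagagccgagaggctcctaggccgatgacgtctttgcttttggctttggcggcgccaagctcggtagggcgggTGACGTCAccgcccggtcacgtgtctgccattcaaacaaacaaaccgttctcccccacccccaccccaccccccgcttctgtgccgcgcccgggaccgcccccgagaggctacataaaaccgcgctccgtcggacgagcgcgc
The match begins 166 bases before the start site in Btg2 and 143 bases before it in Dusp1. TGACGTCA, the same on both strands, occurs in 508 of 32851 windows (1.55%) and in 3 of the 36 list members with a promoter (Btg2, Dusp1 and Maff). Btg2, an antiproliferative gene, had 149, 279.7 and 166 in EAP, against 123, 117 and 111 in transplanted WT, without overlap. Dusp1, the phosphatase that shuts off MAP kinases, had 3377, 3132 and 1058 in EAP, against 731, 533 and 1726 in transplanted WT, and overlapped because transplanted WT 3 exceeded EAP 3. Maff had 3.66, 0.807 and 2.78 in EAP, against 3.31, 3.04 and 4.28 in transplanted WT.

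**Figure D4:**
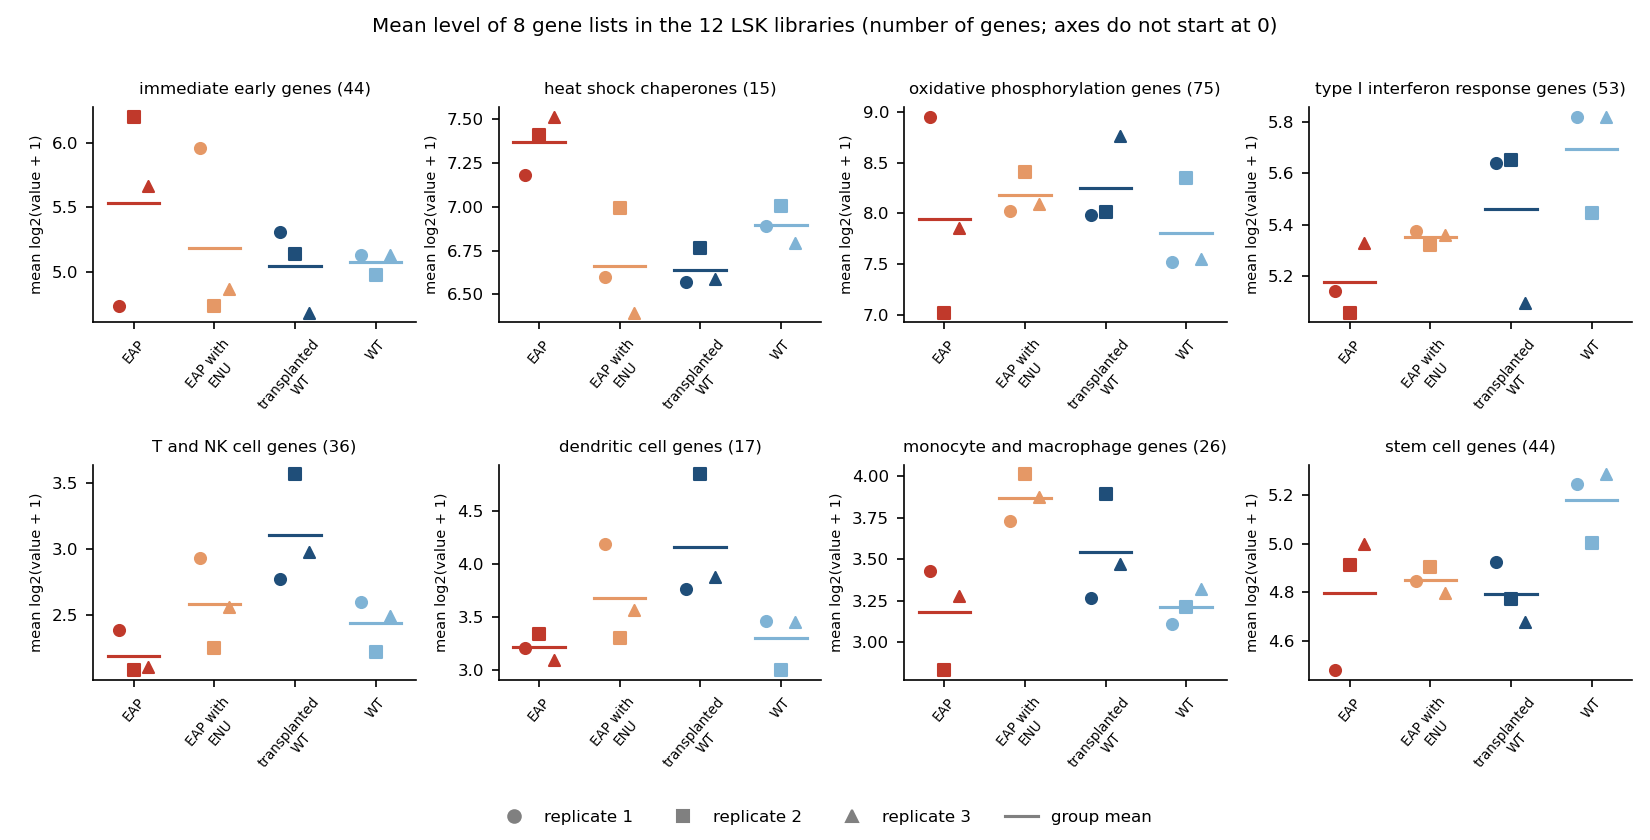
Mean log2(value + 1) of 8 gene lists in each LSK library, by group, with a marker for each replicate and a line at the group mean; the axes do not start at 0. The 3 EAP libraries lie above all others for heat shock chaperones (7.18 to 7.52), EAP 2 leads the immediate early genes, and EAP 1 and EAP 2 lie at opposite ends for oxidative phosphorylation.

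Genes of stem cell identity gave no call. Of 44 tested members none passed, 0 had an unadjusted p under 0.05 in either direction, and the median log2 difference was -0.04. Mecom, a transcription factor that long-term stem cells require, had 26.4, 31.2 and 37.1 in EAP, against 27.1, 29.2 and 26.6 in transplanted WT. Procr (EPCR), a surface marker of stem cells, had 39.2, 34.1 and 55.1, against 31.7, 35.1 and 31.6, and Hlf, a stem cell transcription factor, had 14.3, 54.99 and 75.9, against 61.6, 62.8 and 22.4. EAP 1 was the lowest for Hlf. For 2 members the ranges did not overlap, both higher in EAP, which is close to the background of 3.8%. Hoxb5, a homeobox factor of long-term stem cells, was among them, with 6.13, 6.66 and 5.84 in EAP, against 5.09, 2.59 and 4.04 in transplanted WT. Of 40 tested regulators altered in leukaemia 0 had an unadjusted p under 0.05. The 2 without overlap, also close to that background, were Hoxa10 and Ezh2. Ezh2, the methyltransferase of Polycomb complex 2, had 124, 128 and 108 in EAP, against 101, 99.7 and 101 in transplanted WT.

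Among lymphoid priming genes the named differences were all on the lower side. Of 23 tested members 0 lay higher and 3 lower at an unadjusted p under 0.05 (background 1.65% and 1.96%). For 5 the EAP libraries were below all transplanted WT libraries (background 3.18%), and the median was -0.22. Ly6d, a marker of B-lineage and plasmacytoid dendritic specification, had 57.8, 29.6 and 19.8 in EAP, against 62.02, 222 and 229.5 in transplanted WT (-2.14 ± 0.52, unadjusted p = 0.00154), and WT, with 49.2, 40.5 and 42.8, lay within the EAP range. Rag2, a part of the recombinase of antigen receptor genes, had 2.31, 4.98 and 4.19 in EAP, against 6.06, 13.9 and 9.23 in transplanted WT (-1.13 ± 0.44, unadjusted p = 0.02702). Blnk, a B cell adaptor, was the third (-1.27 ± 0.42, unadjusted p = 0.0114). Dntt, the template-free polymerase of lymphoid progenitors, had 239.9, 342 and 409 in EAP, 603, 302 and 392.4 in EAP with ENU, 516, 717 and 552 in transplanted WT and 1554, 511 and 1513 in WT. The EAP libraries were below all transplanted WT libraries in Dntt and Rag2, and WT was higher still in 2 of its 3 libraries. Flt3, the receptor of multipotent progenitors, had 61.7, 445 and 334 in EAP, against 365, 446 and 260.4 in transplanted WT, with EAP 1 alone far below the rest. Without transplanted WT 2, 1 member lay lower, with a median of -0.16.

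Of 31 tested myeloid progenitor genes 1 lay higher and 1 lower at an unadjusted p under 0.05 (background 1.65% and 1.96%), and the median was 0.08. Without EAP 1 it was 3 and 8 with a median of -0.19, while 490 of all 11719 genes in that fit lay higher and 624 lower. Without EAP 1, transplanted WT 3 and WT 2 it was 3 and 8 with a median of -0.25. In that fit 721 of all 11668 genes lay higher and 937 lower. Without transplanted WT 2 it was 0 and 0 with a median of 0.21. Cebpb, the factor of emergency granulopoiesis, had 29.5, 73.3 and 35.2 in EAP, against 11.7, 0.908 and 16.96 in transplanted WT (2.52 ± 1.07, unadjusted p = 0.0378), without overlap. Irf8, which directs monocyte and dendritic fate, had 121, 188 and 115 in EAP, 289.8, 290.4 and 303 in EAP with ENU and 184, 357 and 227 in transplanted WT (-0.84 ± 0.29, unadjusted p = 0.0139). The granule enzyme genes rested on 1 library, since Mpo had 14566, 2223 and 2328 in EAP, against 2305, 3516 and 5712 in transplanted WT, and Elane had 1612, 102 and 198, against 196, 581 and 719. EAP 1 was the highest of the 6 for both. Of 14 tested late neutrophil genes 1 lay higher (Cxcr2) and 2 lower (Camp and Ngp), while 8 had a positive and 6 a negative difference. Their median was 0.06, and it ranged from -0.46 without EAP 1 to 0.12 without EAP 2. Camp had 0.922, 0 and 1.84 in EAP, against 6.01, 5.93 and 2.31 in transplanted WT. Ngp had 2.81, 0.847 and 4.78, against 4.11, 6.18 and 8.56.

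The other monocyte and macrophage genes were mostly on the lower side. Of 26 tested members Cd14 was the only one that lay higher at an unadjusted p under 0.05, 6 lay lower (background 1.96%), and the median was -0.31. 4 of the 6 belong to the macrophage complement and scavenger genes, a group of 6 tested genes with a median of -1.21. C1qa had 1.23, 0 and 0.977 in EAP, against 3.95, 4.74 and 2.67 in transplanted WT (-1.52 ± 0.37, unadjusted p = 0.00175). C1qb had 5.51, 2.200 and 2.44 in EAP, against 10.6, 14.4 and 11.3 in transplanted WT (-1.65 ± 0.40, unadjusted p = 0.00157), and C1qc had 3.88, 1.78 and 0.885, against 10.7, 11.99 and 14.2 (-2.16 ± 0.56, unadjusted p = 0.00256). The 3 chains of complement C1q were each lower in all 3 EAP libraries than in all 3 transplanted WT libraries. In WT, C1qc had 3.96, 16.2 and 2.28, so that WT 1 and WT 3 were near EAP and WT 2 was not. Slc40a1, the iron exporter ferroportin of macrophages, had 3.24, 2.13 and 2.05 in EAP, against 5.53, 10.8 and 12.1 in transplanted WT (-1.55 ± 0.39, unadjusted p = 0.00204), and Vcam1 and Ctss were the remaining members. Without EAP 1, transplanted WT 3 and WT 2, 10 members lay lower and 1 higher, while 937 of all 11668 genes tested in that fit lay lower and 721 higher. The summed level of the 6 monocyte and macrophage markers in the table was 29.3 to 49.2 in EAP, 172 to 196 in EAP with ENU, 32.9 to 142 in transplanted WT and 13.4 to 32.5 in WT, and none was at 0 in a whole group. In bulk RNA, fewer cells of a type and less RNA per cell cannot be told apart.

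Genes of T and NK cells gave the largest count of lower members. Of 36 tested genes 35 had a negative difference, 18 lay lower and 0 higher at an unadjusted p under 0.05 (background 1.96% and 1.65%), none passed, and the median was -0.87. The coreceptor Cd8b1 was described above. Cd3e, a signalling chain of the T cell receptor, had 0.457, 1.91 and 0.243 in EAP, 1.27, 1.47 and 2.15 in EAP with ENU, 3.89, 5.51 and 1.07 in transplanted WT and 0.268, 0 and 0 in WT (-1.21 ± 0.44 between EAP and transplanted WT, unadjusted p = 0.0181). Cd247, the zeta chain, had 1.78, 4.67 and 2.398 in EAP, against 7.61, 9.92 and 7.02 in transplanted WT (-1.27 ± 0.41, unadjusted p = 0.00967). Ncr1, an activating receptor of NK cells, had 0, 0 and 1.51 in EAP, against 3.27, 8.65 and 1.65 in transplanted WT. The T and NK list mean on the log2 scale was 2.08 to 2.38 in EAP, 2.24 to 2.93 in EAP with ENU, 2.77 to 3.56 in transplanted WT and 2.22 to 2.60 in WT. EAP thus lay beside untransplanted WT, and transplanted WT lay above both. The summed level of 9 T and NK markers, all in the table, was 7.93 to 15.7 in EAP, 14.4 to 31.6 in EAP with ENU, 26.5 to 74.5 in transplanted WT and 9.36 to 25.0 in WT. The part of such cells in the other differences was not tested. Transplanted WT 2 held the highest level, and without it 5 members lay lower at an unadjusted p under 0.05, with a median of -0.69, while 123 of all tested genes lay lower. Without EAP 3 it was 10 members, with a median of -0.89.

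Dendritic cell genes were also on the lower side. Of 17 tested members 0 lay higher and 6 lower at an unadjusted p under 0.05 (background 1.65% and 1.96%), and the median was -0.91. Siglech, a surface receptor of plasmacytoid dendritic cells, had 2.03, 6.702 and 3.21 in EAP, 29.6, 6.14 and 12.6 in EAP with ENU, 19.4, 74.8 and 11.96 in transplanted WT and 3.96, 2.16 and 3.87 in WT (-2.56 ± 0.67 between EAP and transplanted WT, unadjusted p = 0.00268). The others were Ly6d, Irf8, Cox6a2, Pacsin1 and Clec9a. Ly6d was also counted among the lymphoid priming genes and Irf8 among the myeloid progenitor genes. Without transplanted WT 2, the library with the highest Siglech value, 4 members lay lower and the median was -0.57. Without EAP 1, transplanted WT 3 and WT 2, 10 lay lower with a median of -1.09, while 937 of all 11668 genes in that fit lay lower. MHC class II genes, which present antigen on dendritic and B cells, had 1 lower member of 10, H2-Eb1, with 26.9, 16.8 and 31.02 in EAP, against 39.1, 137 and 60.9 in transplanted WT (-1.48 ± 0.45, unadjusted p = 0.00721). Their median was -0.60 against transplanted WT and 0.60 against WT, with the EAP libraries in both. Without EAP 1 the lower members were 5, with a median of -0.92, while 624 of all 11719 genes in that fit lay lower. Without EAP 1, transplanted WT 3 and WT 2 they were 7, with a median of -0.88. Without EAP 1 and EAP 2 the median was -0.74.

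**Figure D5:**
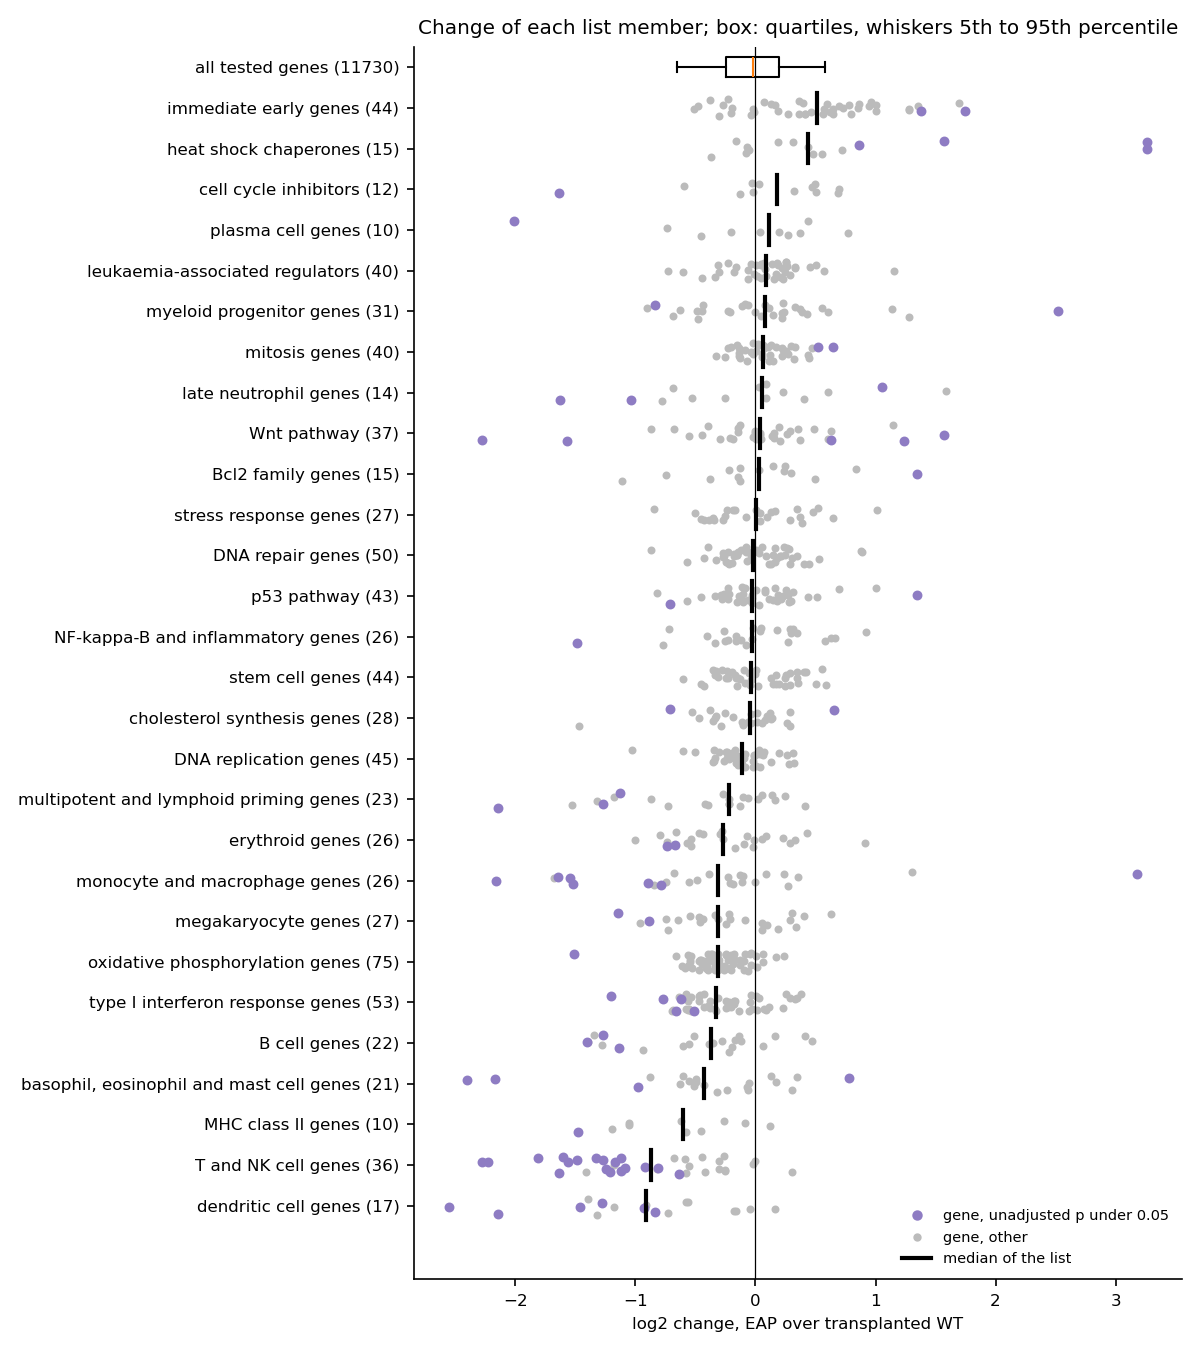
Log2 change between EAP and transplanted WT of each member of 28 gene lists, ordered by list median (black line), with the number of tested members in brackets and members at an unadjusted p under 0.05 in purple. The box at the top gives all 11730 tested genes. The immediate early genes (median 0.51) lie at the top, and the dendritic (-0.91) and T and NK cell genes (-0.87) at the bottom.

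The other lineage lists had 0 to 3 lower and 0 to 1 higher members at an unadjusted p under 0.05. The background over all tested genes was 1.96% lower and 1.65% higher. The lower counts of the mast cell, megakaryocyte, erythroid and B cell lists were above that share. Of 21 basophil, eosinophil and mast cell genes 1 lay higher (Il5ra) and 3 lower (Cma1, Tpsb2 and Hdc). Cma1, a mast cell chymase, was listed at 0 in all 3 EAP libraries and had 4.55, 3.28 and 5.297 in transplanted WT. Tpsb2, a mast cell tryptase, had 0.732, 0.613 and 0 in EAP, against 6.68, 2.997 and 7.25 in transplanted WT. Of 27 megakaryocyte genes 0 lay higher and 2 lower, among them Pf4, a platelet chemokine, with 52.4, 16.9 and 30.5 in EAP, 76.5, 135 and 95.8 in EAP with ENU and 50.4, 56.5 and 63.1 in transplanted WT (-0.88 ± 0.36, unadjusted p = 0.0308). Serpine2 was the other. Of 26 erythroid genes 0 lay higher and 2 lower (Blvrb and Aqp1), and of 22 B cell genes 0 and 3 (Blnk, Fcrla and Bank1). These counts rested on single libraries. Without EAP 2 or without transplanted WT 3 there were 0 lower mast cell list members, with medians of -0.05 and -0.25, and without EAP 1 there were 6, with a median of -0.90. Without transplanted WT 2 there were 0 lower members of the megakaryocyte, erythroid and B cell lists, and without transplanted WT 3 there were 0 of the megakaryocyte and erythroid lists. Without EAP 1 the lower members were 4 in the megakaryocyte, 6 in the erythroid and 4 in the B cell list. In that fit 624 of all 11719 genes lay lower. Without EAP 1, transplanted WT 3 and WT 2 they were 5, 5 and 6, while 937 of all 11668 genes in that fit lay lower. Of 10 plasma cell genes Eaf2 was the only one at this level. Jchain, which joins secreted antibodies, had 679, 1236 and 305 in EAP, against 199.7, 699 and 853 in transplanted WT, and overlapped. Of 7 tested endothelial and stromal genes none was at this level.

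Most type I interferon response genes had a negative difference. Of 53 tested members 41 had a negative difference, 0 lay higher and 5 lower at an unadjusted p under 0.05 (background 1.65% and 1.96%), and the median was -0.33. Irf7, the factor that amplifies interferon production, had 87.3, 80.7 and 58.6 in EAP, against 140.0, 152 and 78.5 in transplanted WT (-0.67 ± 0.27, unadjusted p = 0.0311). Phf11b, an interferon-induced PHD finger gene, had 37.9, 24.1 and 33.9 in EAP, against 47.1, 58.5 and 42.01 in transplanted WT (-0.62 ± 0.23, unadjusted p = 0.0213), and Usp18 and Ifi27l2a were also among the lower members. For Irf7, transplanted WT 3 stood with EAP and overlapped it. Without EAP 1, transplanted WT 3 and WT 2, 26 members lay lower and 1 higher, with a median of -0.49, while over all genes tested in that fit 937 lay lower and 721 higher. Leaving out single libraries gave between 1 lower member (without transplanted WT 2) and 17 (without EAP 1), with 2 without EAP 2 or transplanted WT 1 and 9 without transplanted WT 3. Over all genes, 624 of 11719 lay lower without EAP 1 and 123 of 11713 without transplanted WT 2.

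The promoter of Phf11b is shown as the member of this group at an unadjusted p under 0.05 that holds an interferon-stimulated response element, written GAAA, any 2 bases, GAAA, or its complement on the other strand. It runs over the 250 bases before the start site at chr14:59341331-59341580 on the minus strand (RefSeq, GRCm38.p6), with the match in capitals.
Phf11b: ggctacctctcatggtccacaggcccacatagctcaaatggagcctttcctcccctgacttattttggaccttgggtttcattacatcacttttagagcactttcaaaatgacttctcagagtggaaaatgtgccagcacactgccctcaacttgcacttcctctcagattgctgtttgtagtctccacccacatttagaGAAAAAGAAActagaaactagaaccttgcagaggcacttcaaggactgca
The match begins 50 bases before the start site. The motif, searched on both strands, occurs in 978 of 32851 windows (2.98%) and in 18 of the 42 list members with a promoter in the table (42.9%). Ifit1, another member with the motif, had 27.99, 12.96 and 15.6 in EAP, against 23.7, 23.9 and 22.9 in transplanted WT, and overlapped.

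Genes of energy metabolism ranged widely among the EAP libraries. Of 75 tested oxidative phosphorylation genes 69 had a negative difference, but 1 lay lower and 0 higher at an unadjusted p under 0.05, and the median was -0.31. The member at this level was Ndufs5, a subunit of complex I, with 83.1, 16.3 and 37.9 in EAP, against 85.02, 95.3 and 157 in transplanted WT (-1.51 ± 0.49, unadjusted p = 0.0101). The list mean on the log2 scale was 8.96, 7.02 and 7.85 in EAP 1 to 3, against 7.98, 8.02 and 8.76 in transplanted WT 1 to 3, so that EAP 1 and EAP 2 were the highest and the lowest of the 6. Without EAP 2 the median was 0.16, without EAP 1 it was -0.83 with 31 lower members, without EAP 3 it was -0.27 with 5, and without transplanted WT 3 it was -0.06 with 1. Without EAP 1, transplanted WT 3 and WT 2 the median was -0.58 with 28 lower members, while 937 of all 11668 genes in that fit lay lower. Over all tested genes 624 of 11719 lay lower without EAP 1 and 435 of 11716 without EAP 3, beside 230 of 11730 with all libraries. The share of signal in ribosomal protein genes was 3.86, 2.04 and 5.12% in EAP 1 to 3, against 4.61, 5.69 and 4.04% in transplanted WT 1 to 3, with EAP 2 again lowest.

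Of 40 tested mitosis genes 2 lay higher and 0 lower at an unadjusted p under 0.05 (background 1.65% and 1.96%), the kinetochore proteins Cenpe and Cenpf. Cenpf had 21.3, 25.8 and 20.2 in EAP, against 15.6, 14.3 and 12.03 in transplanted WT (0.65 ± 0.23, unadjusted p = 0.0174), without overlap. Of 45 DNA replication genes 0 were at this level. For 4 (Mcm2, Mcm5, Mcm6 and Mcm10) the EAP libraries were below all transplanted WT libraries (background 3.18%). Mcm2, a subunit of the replicative helicase, had 383, 355 and 380.2 in EAP, against 417, 444 and 585 in transplanted WT. Of 12 cell cycle inhibitors the only member at this level was Trp53, and of 50 DNA repair genes there was none, with a median of -0.02. Of 28 cholesterol synthesis genes 1 lay higher (Stard4) and 1 lower (Hmgcs1), of 26 NF-kappa-B and inflammatory genes 0 and 1 (Ccl5), and of 27 stress response genes 0 and 0.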

How the data were processed

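RNA-seq of sorted mouse LSK cells was read from 1 table of the series with 12 LSK libraries. Per the labels' protocols, TRIzol extraction preceded a TruSeq Stranded mRNA preparation (Illumina). Per the submitters' processing notes, bcl2fastq, FastQC, TopHat, SAMtools and edgeR were used with mm10, without stated versions. The deposited values are a normalised signal that the authors name CPM. Their sums differ between libraries and they carry no whole-read step, so depth is unknown, no count test was run and no counting interval can be given.

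Values were tested as log2(value + 1) with limma 3.58.1 in R 4.3.3 (moderated test with a mean trend, 4 groups, genes at 1 or more in at least 3 libraries, Benjamini-Hochberg threshold 0.05), and the script was tested on simulated data. An unadjusted p under 0.05 describes and is no call. An exact permutation test of 3 against 3 cannot go below 0.1. Gene lists are described by counts and medians. Lists share members, such as Ly6d, Irf8, Blnk and Tcf7, so the counts of different lists are not independent. Gene positions are from GENCODE M21 (GRCm38, the assembly of mm10), found for 11330 names, and promoters from RefSeq GRCm38.p6. Named genes were the 3 engineered genes, those that passed, in each direction the 12 with the smallest p without overlap and 5 or more as the mean of the higher group (predicted genes passed over), core list members and up to 4 with the smallest p per list, and the 5 closest genes by correlation. Mettl7a1, Tmco6, Bin1, Rell2, Ecscr, Hspa8, Hsp90aa1, Dnaja1, Dnajb4, Ddx3y, Maff, Jchain, Ifit1, Ctss, Usp18, Clec9a, Dvl1, Mcm6, Mcm10 and Hoxa10 were named after their values were seen. Some genes that the rule named are not reported here. The groups and lists were chosen with earlier results of these data known. In all, 16 alternatives were tried, 4 of them chosen after seeing the data.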

Additional observations from a re-analysis of the deposited data

How the results depend on the processing

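Beside the 2 higher and 1 lower genes called, a pseudocount of 0.1 gave 1 higher. The fit of the 6 libraries alone gave 0 and 0, array weights gave 7 and 8, and rescaling to equal sums gave 1 and 0. The array weights were 0.0838, 0.281 and 1.25 in EAP 1 to 3 and 7.11, 1.54 and 0.223 in transplanted WT 1 to 3. The calls with array weights thus leaned mostly on EAP 3 and transplanted WT 1. Without EAP 1, transplanted WT 3 and WT 2 there were 1 and 0, a term for these 3 libraries gave 3 lower, and without EAP 1 and EAP 2 there were 0 and 0. Leaving out single libraries gave 0 to 1 higher and 0 to 0 lower. With the replicate number as a block 0 and 0 passed; same-numbered EAP and transplanted WT libraries deviated with correlations of -0.59, 0.33 and -0.64, so the numbers were not taken as pairs. No filter and median-of-ratios rescaling gave 2 and 1. Among 53 genes under 16 alternatives, Cd14, Mettl7a3 and Eaf2 together lost their call 32 times, other genes gained one 10 times and 0 changes of sign occurred. Of the list medians 23 moved and 473 shifted by less than the larger standard deviation of the list mean within EAP or transplanted WT. Unlike the genes, some list medians changed sign. The oxidative phosphorylation median ranged from -0.83 to 0.16, the Wnt median from -0.29 to 0.28 and the DNA replication median from -0.36 to 0.14. Unknown depth and 3 libraries a group limit what could be called.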
